A study of Mus musculus with 12 samples.

Results

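The Cyp4a genes of the mouse encode cytochrome P450 enzymes of the endoplasmic reticulum that add a hydroxyl group to the end carbon of fatty acids, the omega carbon. The 6 genes described here are Cyp4a10, Cyp4a14, Cyp4a12a, Cyp4a12b, Cyp4a31 and Cyp4a32, taken by symbol from a liver expression table of 18560 genes. All 6 passed a filter of at least 1 FPKM (fragments scaled for transcript length and library size) in at least 3 libraries, which left 11514 genes to test. Livers were profiled by RNA sequencing in 12 libraries, 3 in each of 4 groups: OXR1A-/- males, WT males, OXR1A-/- females and WT females. All mice were aged 12 months. Oxr1, which gives rise to the isoform OXR1A, belongs to the TLDc genes and is known for its role in resistance to oxidative stress. The design addresses how liver expression differs without OXR1A, and its title names fatty liver in males. The strain, the way the allele was made, the diet, the hour of tissue collection and whether the 3 libraries of a group came from 3 animals were not given in the sources used here. The p-values therefore rest only on the spread of libraries within groups, pooled over the 4 groups, which may in part be technical.

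Omega-hydroxylation starts a route that turns fatty acids into dicarboxylic acids: alcohol and aldehyde dehydrogenases complete the oxidation, and peroxisomes shorten the product. Cyp4a10 and Cyp4a14 are textbook targets of the nuclear receptor PPAR-alpha in mouse liver and are induced by fasting, high-fat feeding and fibrate drugs. Cyp4a12a and Cyp4a12b are known in mice as male-type genes that depend on androgen and male growth hormone pulses, and Cyp4a12a makes the vasoactive lipid 20-HETE from arachidonic acid in mouse kidney. Cyp4a31 and Cyp4a32 are close copies of Cyp4a10.

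The genes stand together on mouse chromosome 4 of build GRCm38 (mm10), within 323.5 kb. In the RefSeq annotation, Cyp4a12a (Entrez gene 277753) lies at chr4:115299046-115332815 and Cyp4a12b (13118) at chr4:115411624-115439034, both on the plus strand. Cyp4a14 (13119) lies at chr4:115486200-115496158 on the minus strand, and Cyp4a10 (13117) at chr4:115518287-115533649 on the plus strand. Cyp4a31 (666168) at chr4:115563627-115579015 and Cyp4a32 (100040843) at chr4:115600927-115622507 follow on the plus strand. Their coding sequences are 1524 to 1530 bases long. The stretch around the cysteine that holds the haem iron, the signature of every P450, shows how the 6 genes relate. It is printed 5′ to 3′ on each gene's own strand, joined over an exon junction, with capitals where a base differs from Cyp4a10. The stretches span chr4:115529487-115532558 in Cyp4a10, chr4:115487284-115489820 on the minus strand in Cyp4a14, chr4:115328971-115331861 in Cyp4a12a, chr4:115435225-115438084 in Cyp4a12b, chr4:115574935-115577963 in Cyp4a31 and chr4:115614865-115621461 in Cyp4a32, each with the intron left out.
Cyp4a10: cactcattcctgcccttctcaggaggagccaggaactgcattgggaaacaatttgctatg
Cyp4a14: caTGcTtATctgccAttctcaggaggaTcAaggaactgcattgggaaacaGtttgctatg
Cyp4a12a: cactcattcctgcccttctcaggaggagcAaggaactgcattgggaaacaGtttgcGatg
Cyp4a12b: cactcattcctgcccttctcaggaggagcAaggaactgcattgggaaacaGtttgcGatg
Cyp4a31: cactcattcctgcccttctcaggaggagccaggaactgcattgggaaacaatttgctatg
Cyp4a32: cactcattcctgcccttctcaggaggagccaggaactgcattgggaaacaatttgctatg
Over these 60 bases Cyp4a14 differed from Cyp4a10 at 9 positions and both Cyp4a12 genes at 3, while Cyp4a31 and Cyp4a32 did not differ from it. Over the whole coding sequence, Cyp4a14 was 76.1% identical to Cyp4a10, and Cyp4a12a was 80.2% identical to it. Cyp4a31 and Cyp4a32 reached 96.6% and 97.2% identity with Cyp4a10.

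Cyp4a12a and Cyp4a12b were the closest pair, with 98.5% identity in the coding sequence, 23 differing bases and an identical run of 247 bases between 2 differences. The densest cluster of differences is shown because reads over such bases are what can tell the copies apart. The stretches are chr4:115326628-115326687 in Cyp4a12a and chr4:115432881-115432940 in Cyp4a12b, coding bases 630 to 689 of each, with capitals at the 4 bases that differ.
Cyp4a12a: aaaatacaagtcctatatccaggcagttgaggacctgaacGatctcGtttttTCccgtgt
Cyp4a12b: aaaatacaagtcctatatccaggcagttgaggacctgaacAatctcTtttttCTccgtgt
Of all windows of 50 bases in the coding sequence of Cyp4a12a, 45.1% occur in none of the other 5 genes, and the share is the same for Cyp4a12b. That share is 100% for Cyp4a14, 59.4% for Cyp4a10, 68.5% for Cyp4a31 and 53.2% for Cyp4a32. How the submitters' counting treated reads that match several copies was not given in the sources used here. The split between Cyp4a12a and Cyp4a12b, and between Cyp4a10, Cyp4a31 and Cyp4a32, is therefore uncertain, while Cyp4a14 shares no such window.

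Over the whole table, sums of FPKM ran from 526202.8 to 667433.5 per library, and read depth is unknown. Hepatocyte markers were high in every library, their 10 genes summing to 53715.5 to 59115.53 FPKM in OXR1A-/- males, 68763.6 to 78419.25 in WT males, 71119.83 to 73235.6 in OXR1A-/- females and 66736.28 to 74072.61 in WT females. The kidney, the other organ known for Cyp4a12a, left little trace: its 4 markers in the table, of which 0 passed the filter, summed to at most 1.09 FPKM. Oxr1 stood at 23.4 ± 1.48 FPKM in OXR1A-/- males and 17.9 ± 5.61 in WT males, and at 20.2 ± 0.642 in OXR1A-/- females and 18.5 ± 1.85 in WT females (SD, n = 3 each). That value covers all isoforms and does not check the loss of OXR1A. Traces of opposite-sex RNA were seen in 3 libraries: Xist was at 0.82 FPKM in OXR1A-/- male 3, against 0.04 to 0.08 in the other males, and the Y-linked Eif2s3y was at 0.85 in OXR1A-/- female 1 and 1.89 in WT female 1, against 0 to 0.10 in the other females. WT male 2 was poorest in long transcripts.

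Cyp4a RNA was made up differently by sex and, in males, by genotype. Summed over the 6 genes, the family reached 974 ± 206 FPKM in OXR1A-/- males and 565 ± 45.3 in WT males, and 795 ± 177 in OXR1A-/- females and 670 ± 163 in WT females (SD, n = 3 each). Every OXR1A-/- male library, at 736.0 to 1099.1 FPKM, was above every WT male library, at 514.0 to 601.5. This separation holds for FPKM as given and depends on the scaling. Median-ratio scaling, an alternative used below, divides OXR1A-/- male 2 by 1.114 and WT male 2 by 0.776. With it the sum of OXR1A-/- male 2 would fall below that of WT male 2. The PPAR-alpha type genes Cyp4a10 and Cyp4a14 gave 83.4% ± 2.4 of the sum in OXR1A-/- males and 58.9% ± 14.2 in WT males. In females they gave 97.4% ± 1.5 in OXR1A-/- livers and 95.7% ± 0.379 in WT livers. The Cyp4a12 pair gave 14.2% ± 2.25 in OXR1A-/- males and 37.0% ± 13.4 in WT males, but under 1% in every female library.

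**Figure D1:**
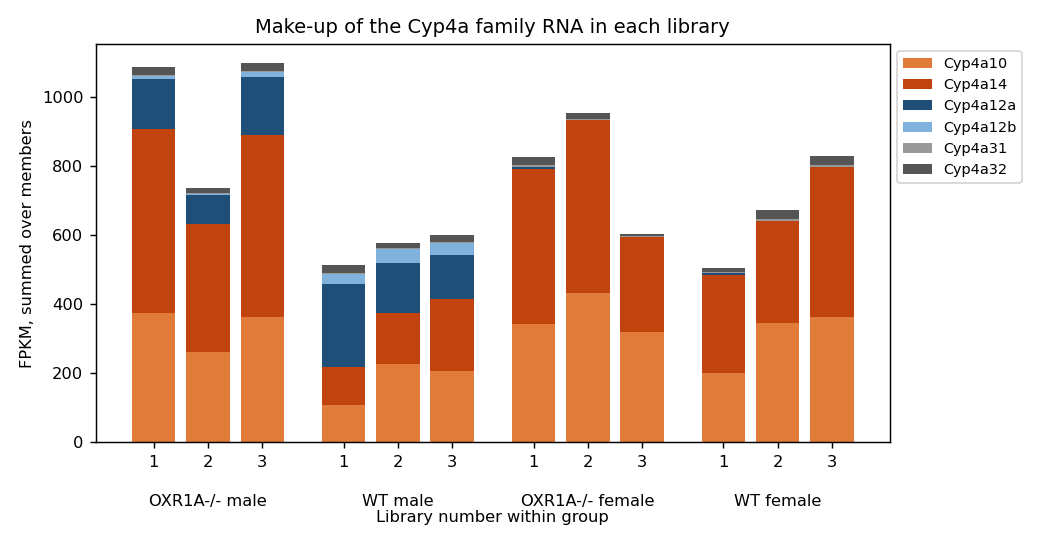
Stacked FPKM of the 6 Cyp4a genes in each of the 12 libraries, grouped by genotype and sex. The 3 OXR1A-/- male bars sum to 736.0 to 1099.1 FPKM and the 3 WT male bars to 514.0 to 601.5; the blue Cyp4a12 segments are visible in males and almost absent in females.

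Cyp4a14 was higher in OXR1A-/- livers of males. There it was at 533.29, 369.71 and 527.31 FPKM in the OXR1A-/- livers, against 110.79, 149.67 and 209.00 in the WT livers. The lowest OXR1A-/- male lay above the highest WT male. Ranked among all genes of its library by FPKM, Cyp4a14 stood between places 115 and 189 in OXR1A-/- males and between 364 and 624 in WT males. Its mean was 3.05-fold higher in OXR1A-/- males, and the log2 change on the log2(FPKM + 1) scale was 1.63 (SE 0.28, limma adjusted p = 0.0168 over all tested genes). RNA of bulk liver cannot tell fewer cells of a type from less RNA per cell.

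Cyp4a10, which hydroxylates medium and long-chain fatty acids, was at 373.77, 261.75 and 363.05 FPKM in OXR1A-/- males and at 108.50, 225.81 and 207.17 in WT males. The groups did not overlap in FPKM as given, but with median-ratio scaling OXR1A-/- male 2 would fall below WT male 2. The 1.84-fold higher mean in OXR1A-/- males did not pass the test (log2 change 0.93, SE 0.29, limma adjusted p = 0.101). The ratio of Cyp4a14 to Cyp4a10 within a library was 1.43, 1.41 and 1.45 in OXR1A-/- males and 1.02, 0.663 and 1.01 in WT males, again without overlap.

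Cyp4a12a, the male-type arachidonic acid hydroxylase, was at 145.02, 85.65 and 168.30 FPKM in OXR1A-/- males and at 239.11, 144.08 and 125.60 in WT males. These values overlapped, and no difference passed (log2 change -0.35, SE 0.75, limma adjusted p = 0.789). That SE is pooled with the female libraries, where Cyp4a12a ran from 0.07 to 7.08 FPKM in OXR1A-/- and from 0.07 to 4.60 in WT livers. Without the 3 libraries that held a trace of opposite-sex RNA the change in males was -0.544 (limma adjusted p = 0.314). The near-identical neighbour Cyp4a12b was at 8.69, 2.89 and 13.41 FPKM in OXR1A-/- males, against 29.36, 41.87 and 35.13 in WT males. Here every OXR1A-/- male was below every WT male. The mean of Cyp4a12b was 4.26-fold lower in OXR1A-/- males (log2 change -2.15, SE 0.39, limma adjusted p = 0.0217). Cyp4a12b made up 5.65%, 3.26% and 7.38% of the pair's FPKM in OXR1A-/- males and 10.9%, 22.5% and 21.9% in WT males. With the 2 copies summed before the fit, the pair did not pass (log2 change -0.56, limma adjusted p = 0.662), a sum carried mostly by Cyp4a12a; the call of Cyp4a12b holds for the values as split between the copies shown above.

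The minor copies of Cyp4a10 did not separate the genotypes in males. Cyp4a31 was at 2.93, 2.71 and 2.87 FPKM in OXR1A-/- males and at 2.59, 1.74 and 2.71 in WT males. Cyp4a32 was at 22.26, 13.28 and 24.14 FPKM in OXR1A-/- males and at 23.68, 15.01 and 21.92 in WT males. Both genes overlapped between the groups, and neither passed (log2 changes 0.21 and -0.04, SE 0.20 and 0.43, limma adjusted p = 0.532 and 0.965).

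In males, then, 2 of 6 genes passed at an adjusted p under 0.05, Cyp4a14 upwards and Cyp4a12b downwards, where 2.55% of all tested genes passed, 2.13% upwards and 0.426% downwards. The 3 values of each group did not overlap for 3 of the 6 genes, against 23.7% of all tested genes. Over all tested genes the median log2 change was 0.19. Relative to that median, Cyp4a14 was higher by 1.44, Cyp4a10 by 0.74 and Cyp4a12b lower at -2.34. With median-ratio scaling the call of Cyp4a14 ended (log2 change 1.395, limma adjusted p = 0.0519). Fitted without the female libraries, neither gene passed (limma adjusted p = 0.0877 for Cyp4a14 and 0.16 for Cyp4a12b), so both calls rest on the spread shared with the female libraries. Cyp4a14 also lost its call without OXR1A-/- male 1 (0.0537) or without the 3 libraries that held a trace of opposite-sex RNA (0.0748), and Cyp4a12b without WT male 2 (0.0608) or WT male 3 (0.0765), all limma adjusted p.

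**Figure D2:**
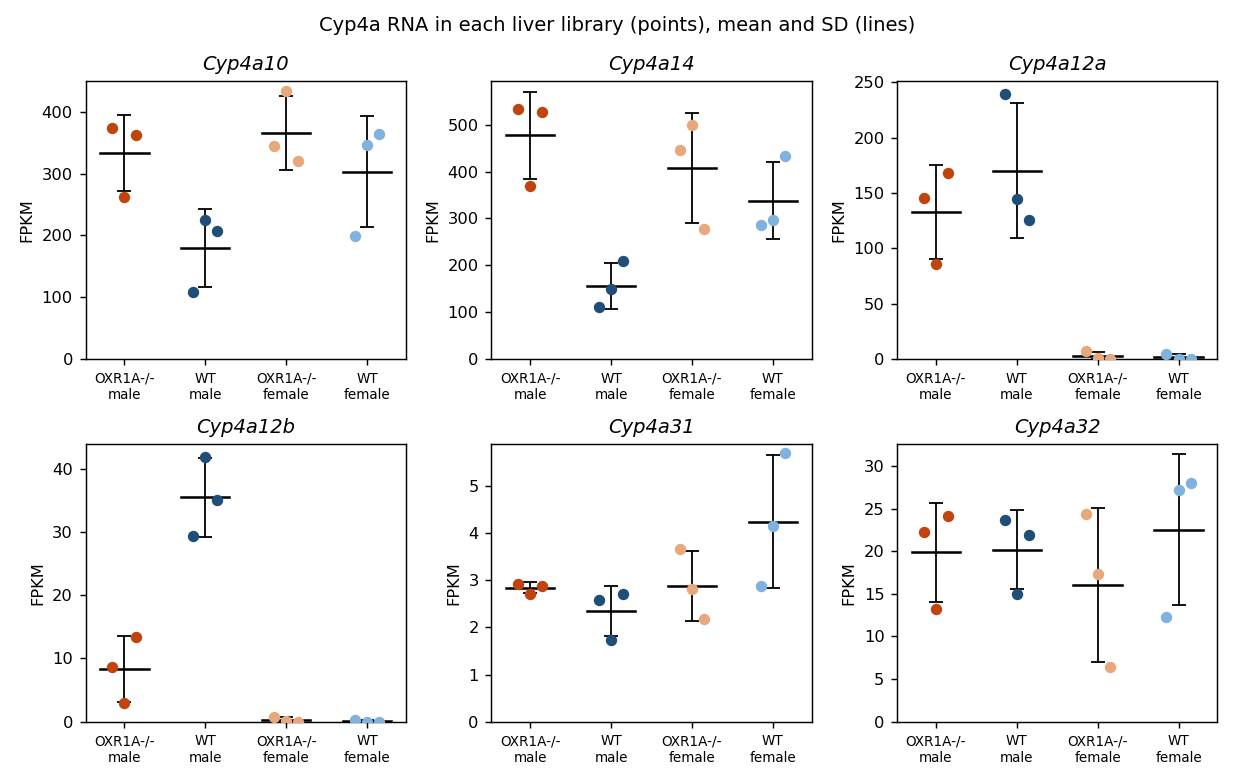
FPKM of each Cyp4a gene in the 12 libraries (points), with the mean (wide line) and SD (bars) of each group of 3. Cyp4a14 lies at 369.71 to 533.29 FPKM in OXR1A-/- males, above the WT males at 110.79 to 209.00; Cyp4a12a and Cyp4a12b lie near 0 in both female groups.

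In females no Cyp4a gene differed between genotypes by the test. Cyp4a14 was at 446.77, 499.71 and 276.41 FPKM in OXR1A-/- females and at 285.34, 296.48 and 433.30 in WT females. Cyp4a10 was at 344.11, 433.72 and 319.75 FPKM in OXR1A-/- females and at 199.56, 345.98 and 363.49 in WT females. Both genes overlapped between the groups (log2 changes 0.25 and 0.31, SE 0.28 and 0.29, limma adjusted p = 0.927 and 0.912).

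Among the other 4 genes, Cyp4a31 was at 3.66, 2.81 and 2.18 FPKM in OXR1A-/- females and at 2.88, 4.15 and 5.70 in WT females. Cyp4a32 was at 24.38, 17.28 and 6.46 FPKM in OXR1A-/- females and at 12.25, 27.17 and 27.99 in WT females. Neither copy separated the groups (log2 changes -0.42 and -0.55, SE 0.20 and 0.43, limma adjusted p = 0.821 and 0.893). Of the 6 genes 0 passed with limma and 0 had an unadjusted p under 0.05, where 0.0174% of all tested genes passed. None of the 6 was without overlap, against 17.6% of all tested genes.

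The male-type pair was near 0 in females of both genotypes. Cyp4a12a was at 7.08, 0.49 and 0.07 FPKM in OXR1A-/- females and at 4.60, 0.13 and 0.07 in WT females. The highest value of each group stood in the library with a trace of Y-linked RNA, OXR1A-/- female 1 and WT female 1, and its part in these levels was not tested. Cyp4a12b was at 0.81 and 0.04 FPKM and listed at 0 once in OXR1A-/- females, and at 0.32 and listed at 0 in 2 libraries in WT females. The highest values of Cyp4a12b fell in the same 2 libraries.

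The difference between the male and the female genotype effect was tested by an interaction term. It passed for 0 of the 6 genes with limma, where 0.0261% of all tested genes passed. The largest differences were in Cyp4a12b (-2.32, SE 0.56, unadjusted p = 0.00144, limma adjusted p = 0.325) and Cyp4a14 (1.38, SE 0.39, unadjusted p = 0.00461, limma adjusted p = 0.433), the 2 genes of the 6 with an unadjusted p under 0.05. The 2 male calls are thus not shown to be particular to males.

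**Figure D3:**
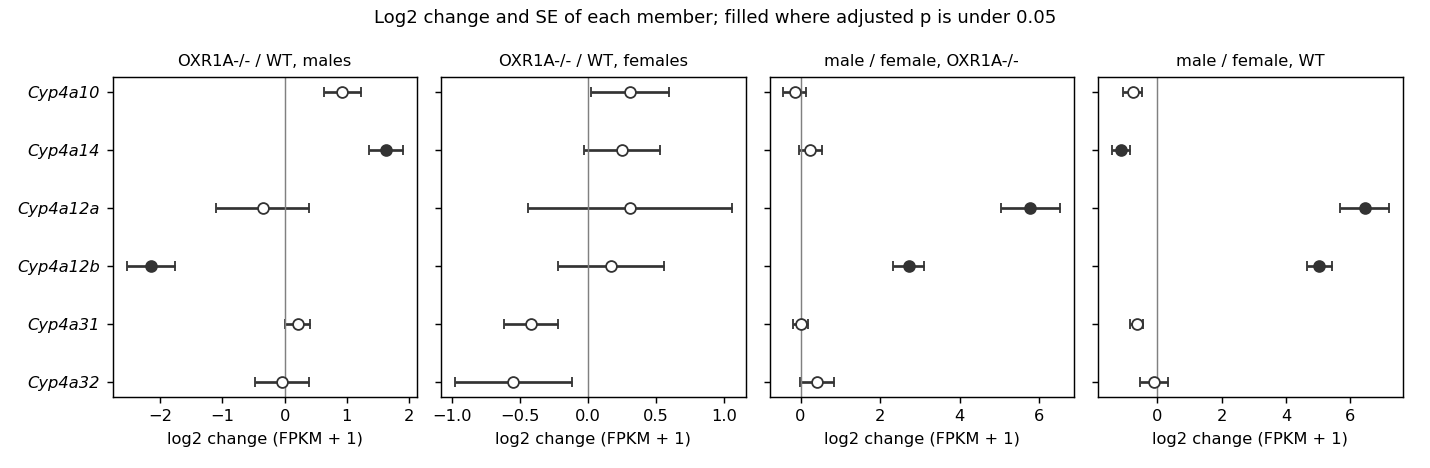
Log2 change of FPKM + 1 for each Cyp4a gene in 4 comparisons, with its standard error (bars), filled where the limma adjusted p is under 0.05; each panel has its own scale. OXR1A-/- against WT in males has 2 filled points (Cyp4a14 at 1.63 and Cyp4a12b at -2.15), the same comparison in females has 0, and males against females have 2 in OXR1A-/- and 3 in WT livers.

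Males and females were then compared within each genotype. In OXR1A-/- livers, Cyp4a12a averaged 133 ± 42.6 FPKM in males and 2.55 ± 3.93 in females, a 52.2-fold higher male mean (log2 change 5.78, SE 0.75, limma adjusted p = 0.00117). In WT livers it averaged 170 ± 60.9 FPKM in males and 1.6 ± 2.6 in females, a 106-fold higher male mean (log2 change 6.44, SE 0.75, limma adjusted p = 0.00027). Cyp4a12b averaged 8.33 ± 5.27 FPKM in males and 0.283 ± 0.457 in females in OXR1A-/- livers (log2 change 2.72, SE 0.39, limma adjusted p = 0.00258), and 35.5 ± 6.26 in males and 0.107 ± 0.185 in females in WT livers (log2 change 5.04, SE 0.39, limma adjusted p = 1.37e-05). In neither genotype did the sexes overlap for either gene of the pair. Without the 3 libraries that held a trace of opposite-sex RNA the changes of Cyp4a12a were 6.48 in OXR1A-/- and 7.22 in WT livers, and those of Cyp4a12b 2.59 and 5.17, all still past the threshold. The ratios of mean FPKM moved further, since the female means of Cyp4a12a rest on those libraries. Without them the male mean was 412-fold higher in OXR1A-/- livers (2 males, 2 females) and 1700-fold higher in WT livers (3 males, 2 females). These folds divide by female means of 0.28 and 0.1 FPKM, near the floor, so their size is uncertain.

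The PPAR-alpha type genes were ordered differently. In WT livers Cyp4a14 was lower in males, at 156 ± 49.5 FPKM, than in females, at 338 ± 82.4 (log2 change -1.13, SE 0.28, limma adjusted p = 0.023), without overlap. In OXR1A-/- livers the sexes overlapped, at 477 ± 92.8 in males and 408 ± 117 in females (log2 change 0.25, SE 0.28, limma adjusted p = 0.765). Cyp4a10, with means of 333 FPKM in males and 366 in females in OXR1A-/- livers, and of 180 in males and 303 in females in WT livers, overlapped between the sexes in both. It passed in neither genotype (log2 changes -0.14 and -0.76, limma adjusted p = 0.89 and 0.102).

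Ordered by mean, Cyp4a14 was highest in OXR1A-/- males, then OXR1A-/- females, WT females and WT males, and WT males were the only group in this order not to overlap with its neighbour. Cyp4a10 was highest in OXR1A-/- females, then OXR1A-/- males, WT females and WT males, and each neighbouring pair overlapped. The order for Cyp4a12b was WT males, OXR1A-/- males, OXR1A-/- females and WT females, with overlap between the 2 female groups alone. For Cyp4a12a it was the same, and there the 2 male groups overlapped as well. Cyp4a31 was highest in WT females, then OXR1A-/- females, OXR1A-/- males and WT males, and Cyp4a32 in WT females, then WT males, OXR1A-/- males and OXR1A-/- females, with no neighbours set apart.

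Cyp4a31 was lower in WT males, at 2.35 ± 0.529 FPKM, than in WT females, at 4.24 ± 1.41, without overlap but also without passing (log2 change -0.63, SE 0.20, limma adjusted p = 0.0634). Cyp4a32 averaged 20.2 ± 4.58 FPKM in WT males and 22.5 ± 8.86 in WT females, with overlap (log2 change -0.09, limma adjusted p = 0.905). In OXR1A-/- livers Cyp4a31 averaged 2.84 ± 0.114 in males and 2.88 ± 0.743 in females, and Cyp4a32 19.9 ± 5.8 in males and 16.0 ± 9.02 in females. Neither separated the sexes there.

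Males against females gave 2 of 6 genes past the threshold in OXR1A-/- livers, where 3.67% of all tested genes passed (1.67% higher and 2.01% lower in males), and 3 of 6 in WT livers, where 13.4% passed. Groups did not overlap for 2 genes in OXR1A-/- livers (22.1% of all tested genes) and for 4 in WT livers (40.2%). Many genes were lower in WT males, 11.1% of those tested, against 2.31% higher, and with median-ratio scaling the split was 552 higher and 508 lower instead of 266 and 1273. Under that scaling Cyp4a14 no longer passed in WT livers (log2 change -0.86, limma adjusted p = 0.101). It also lost that call with the length trend removed (0.053), without WT male 1 (0.0646) or 2 (0.0569), without WT female 2 (0.0546) or 3 (0.0814), and without the 3 trace libraries (0.079).

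Within a library, the sum of Cyp4a10 and Cyp4a14 was set against the sum of Cyp4a12a and Cyp4a12b, a ratio of FPKM that no scaling factor between libraries alters. In OXR1A-/- males the first sum was 907.06, 631.46 and 890.36 FPKM and the second 153.71, 88.54 and 181.71, which gave ratios of 5.9, 7.13 and 4.9. In WT males the first sum was 219.29, 375.48 and 416.17 FPKM and the second 268.47, 185.95 and 160.73, with ratios of 0.817, 2.02 and 2.59. The lowest ratio of an OXR1A-/- male was above the highest of a WT male, and in WT male 1 the Cyp4a12 pair outweighed the PPAR-alpha type. The sums of the pair overlapped between the genotypes, while those of the PPAR-alpha type did not. In females the ratio ran from 100 to 8520 in OXR1A-/- livers and from 98.6 to 11400 in WT livers, with the lowest of each range in the library with a Y-linked trace. On the log2(FPKM + 1) scale the ratio averaged 2.55 in OXR1A-/- males and 0.69 in WT males, and 8.28 in OXR1A-/- females and 8.35 in WT females. The female averages depend on the pseudocount, and with 0.1 in place of 1 they were 9.65 in OXR1A-/- females and 10.08 in WT females, beside 2.56 in OXR1A-/- males and 0.70 in WT males.

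**Figure D4:**
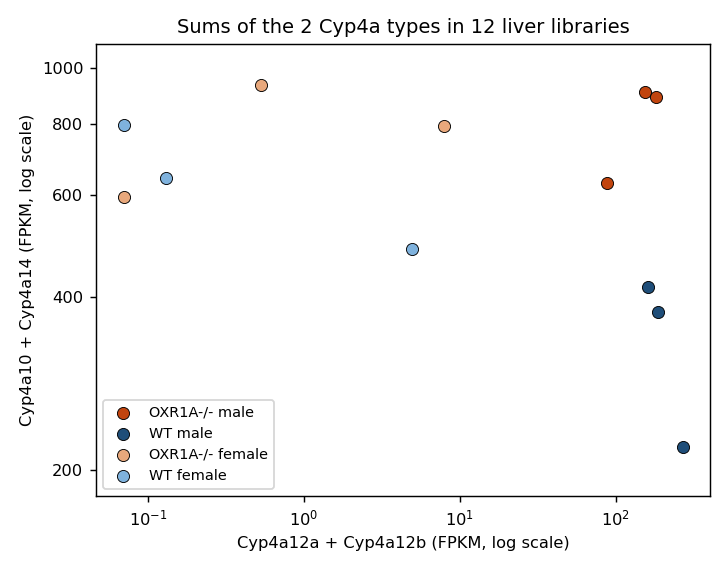
Sum of Cyp4a10 and Cyp4a14 against the sum of Cyp4a12a and Cyp4a12b in each of the 12 libraries, both in FPKM on log axes. OXR1A-/- males lie at 631.46 to 907.06 on the vertical axis, above WT males at 219.29 to 416.17, while the horizontal axis separates the sexes and not the genotypes.

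Across the 12 libraries, as a description over libraries that share groups and preparation, Cyp4a10 and Cyp4a14 went together (Pearson's r = 0.88, Spearman's rho = 0.85, and r = 0.73 for deviations from the group means). Cyp4a12a and Cyp4a12b did so with r = 0.92 (rho = 0.89, 0.59 within groups), and Cyp4a31 and Cyp4a32 with r = 0.62 (rho = 0.7, 0.84 within groups). Between the types, r was -0.5 for Cyp4a10 with Cyp4a12a (-0.45 within groups) and -0.56 for Cyp4a10 with Cyp4a12b (0.27 within groups). It was -0.33 for Cyp4a14 with Cyp4a12a (0.01 within groups) and -0.53 for Cyp4a14 with Cyp4a12b (0.42 within groups). Of these 4 pairs only the first kept a negative value within groups.

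By the same measure over 12 libraries, the genes most like Cyp4a14 included Apcs (r = 0.94), Acot8 (0.93), Ctbp1 and AI507597 (0.91 each). Apcs encodes a pentraxin of the blood and Acot8 a peroxisomal acyl-CoA thioesterase. For Cyp4a10 they included Smim8 (r = 0.89), Cenpm (0.88), Sf3b4 and Slc25a47 (0.87 each). For Cyp4a12a the closest 5 were Elovl3 (r = 0.99), a fatty acid elongase, the P450 gene Cyp2d9 (0.98), the Y-linked Eif2s3y (0.98), and Cml5 and Gnai1 (0.97 each). For Cyp4a12b the closest 5 were C6 and Serpina1e (r = 0.99 each), 2810408I11Rik, Mup20 and Mup21 (0.98 each). C6 is a complement component, and the Mup genes encode pheromone-binding urinary proteins.

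Other PPAR-alpha targets were read beside Cyp4a10 and Cyp4a14, from a list of 50 genes that leaves out the Cyp4a family. The list was chosen with earlier results of these data known, so its counts are no independent result. In males 13 of the 49 tested rose in OXR1A-/- livers, 0 fell and 36 did not pass, beside 2.13% of all tested genes upwards; 43 differences were positive, and the median was 0.48 beside 0.19 over all tested genes. Cd36, which takes up fatty acids, was at 72.2 ± 17.9 FPKM in OXR1A-/- males and 18.8 ± 4.02 in WT males (log2 change 1.87, SE 0.20, limma adjusted p = 0.00172). The lipid droplet gene Cidec was at 16.5 ± 5.01 FPKM in OXR1A-/- males and 4.34 ± 2.19 in WT males (1.75, SE 0.30, adjusted p = 0.0168). Vnn1, a pantetheinase, was at 44.5 ± 7.21 in OXR1A-/- males and 15.1 ± 5.21 in WT males (adjusted p = 0.0122), and the lipase gene Mgll at 59.4 ± 4.83 in OXR1A-/- males and 35.0 ± 3.83 in WT males (adjusted p = 0.0112).

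The other 9 that rose included the hormone gene Fgf21, the peroxisome division gene Pex11a, Abcd2, Crat, Aldh3a2, Etfdh, Acadm and Acadl, with log2 changes of 2.05 down to 0.44. Among the 36 others was Ehhadh, an enzyme of peroxisomal beta-oxidation, at 103 ± 3.53 FPKM in OXR1A-/- males and 105 ± 27.1 in WT males (log2 change 0.01, limma adjusted p = 0.975). These genes and Ehhadh were named after their values were seen. The count of 13 was 4 with median-ratio or quantile scaling, 6 with the length trend removed, 4 without the 3 trace libraries, 0 when fitted without the female libraries, 2 with array weights and 1 without WT male 3. It was 9 to 10 without OXR1A-/- male 3, WT female 1 or WT female 3, and 3 to 8 without any other library.

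In females 0 of the 49 passed with limma (2 at an unadjusted p under 0.05, median 0.02). The interaction called 0 of the 49 (20 at an unadjusted p under 0.05). Males against females gave 4 higher and 2 lower genes in OXR1A-/- livers, beside 1.67% and 2.01% of all tested genes, and 3 higher and 15 lower in WT livers, beside 2.31% and 11.1%. The list's median in WT livers, -0.20, lay next to that of all tested genes, -0.21, and the split was 3 higher and 8 lower with median-ratio scaling, 2 and 8 without the 3 trace libraries and 2 and 9 without WT female 2. Cd36 was at 18.8 ± 4.02 FPKM in WT males and 55.5 ± 8.88 in WT females (log2 change -1.52, SE 0.20, limma adjusted p = 0.000727).

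**Figure D5:**
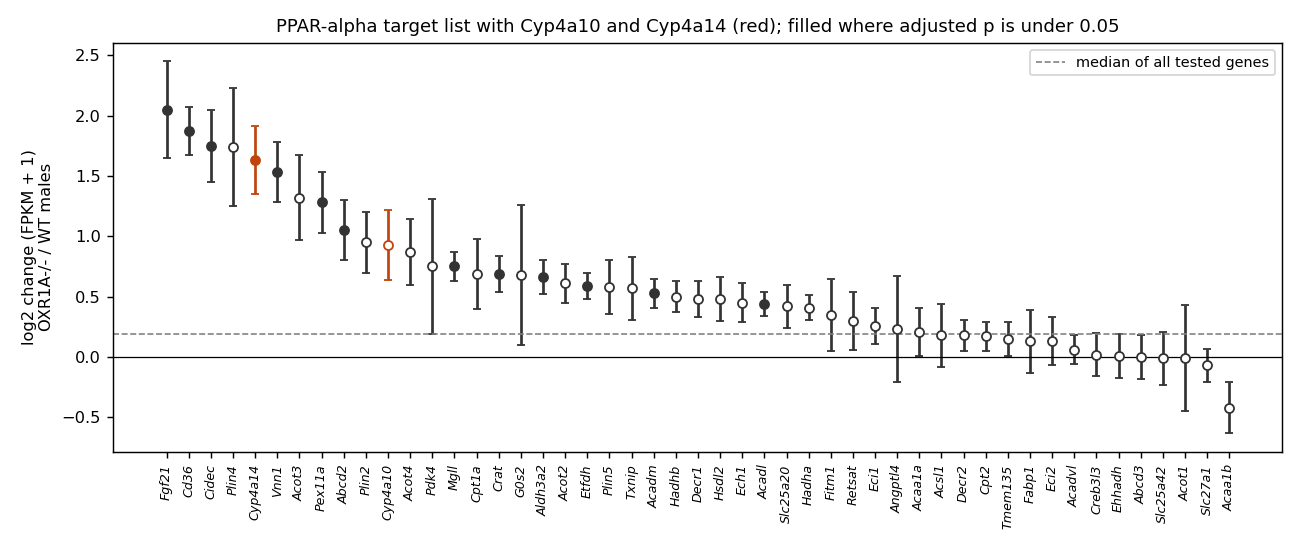
Log2 change of FPKM + 1 (with SE) in OXR1A-/- against WT males for 47 of the 49 tested genes of the PPAR-alpha target list and for Cyp4a10 and Cyp4a14 (red), sorted by size, filled where the limma adjusted p is under 0.05. Cyp4a14 at 1.63 lies between Cidec at 1.75 and Vnn1 at 1.53, and 12 of the plotted list genes are filled, all above the dashed median of all tested genes at 0.19.

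Ppara itself, which encodes the receptor, was at 29.7 ± 12.4 FPKM in OXR1A-/- males and 25.0 ± 9.72 in WT males (log2 change 0.25, SE 0.36, limma adjusted p = 0.677). In females it was at 28 ± 9.42 in OXR1A-/- livers and 51.2 ± 16.5 in WT livers (-0.85, SE 0.36, adjusted p = 0.796). Of 16 PPAR and RXR receptors and their cofactors, 0 passed by genotype in males or in females with limma (2 and 3 at an unadjusted p under 0.05). In males the smallest p-values belonged to Hnf4a, at 142 ± 17.2 FPKM in OXR1A-/- and 107 ± 21.2 in WT livers, and Rxrg, at 4.53 ± 0.952 in OXR1A-/- and 3.25 ± 0.503 in WT livers (adjusted p = 0.133 each).

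Of 7 tested Cyp4 genes outside the 6, 1 passed by genotype in males, where 2.55% of all tested genes passed. In males 4 of the 7 had an unadjusted p under 0.05 with limma. Only 2 of the 7 differences were positive, and the median was -0.29 beside 0.19 over all tested genes. Cyp4b1 was at 11.4 ± 1.2 FPKM in OXR1A-/- males and 7.43 ± 0.915 in WT males (log2 change 0.56, SE 0.13, limma adjusted p = 0.0463), and at 14.1 ± 1.03 in OXR1A-/- females and 14.1 ± 1.64 in WT females. Cyp4f15 was at 41.3 ± 4.18 FPKM in OXR1A-/- males and 59.7 ± 5.93 in WT males (-0.52, adjusted p = 0.0539). Cyp4f14, an omega-hydroxylase of leukotrienes and vitamin E in mouse liver, was at 74.9 ± 13.2 in OXR1A-/- males and 102 ± 7.29 in WT males (-0.45, adjusted p = 0.144). Cyp4f13, Cyp4f16, Cyp4f17 and Cyp4v3 had log2 changes between -0.30 and 0.11 in males and did not pass. In females 0 of the 7 passed with limma (2 at an unadjusted p under 0.05).

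Later steps of omega-oxidation were read from 19 tested genes of dehydrogenases and peroxisomal enzymes, 7 of which also stand in the PPAR-alpha list. In males 2 rose and 0 fell in OXR1A-/- livers with limma (4 at an unadjusted p under 0.05), beside 2.13% of all tested genes upwards. The median was 0.03 beside 0.19 over all tested genes. Aldh1a1, a retinal dehydrogenase, was at 1550 ± 171 FPKM in OXR1A-/- males and 773 ± 129 in WT males (log2 change 1.01, SE 0.16, limma adjusted p = 0.0131). Aldh3a2, the fatty aldehyde dehydrogenase, was at 207 ± 11.8 in OXR1A-/- males and 132 ± 26.5 in WT males (0.66, SE 0.14, adjusted p = 0.0358). In females 0 passed with limma (4 at an unadjusted p under 0.05).

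Cyp4a12b was read beside other sex-biased liver genes. Of 24 tested male-biased genes, which leave out the Cyp4a12 pair, 7 fell in OXR1A-/- males, 0 rose and 17 did not pass, with a median of -1.0; 0.426% of all tested genes fell. Selenbp2, a selenium-binding protein, was at 17.4 ± 0.385 FPKM in OXR1A-/- males and 171 ± 51.4 in WT males (log2 change -3.18, SE 0.21, limma adjusted p = 2.73e-05). The steroid dehydrogenase gene Hsd3b5 was at 3.13 ± 4.24 in OXR1A-/- males and 74.4 ± 5.82 in WT males (-4.72, SE 0.53, adjusted p = 0.00196). C6 was at 33.9 ± 10.3 and Mup21 at 70.2 ± 37.4 FPKM in OXR1A-/- males, against 84.8 ± 8.96 and 267 ± 68.6 in WT males (adjusted p = 0.0112 and 0.0213).

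The count of 7 was 1 when fitted without the female libraries, 3 with array weights, 8 without the 3 trace libraries, 12 without OXR1A-/- male 3, 4 without OXR1A-/- male 1 or WT male 1, 3 without WT male 2 or WT male 3, and 6 to 7 without any other library. In females 0 of the 24 passed with limma (3 at an unadjusted p under 0.05). Males against females gave 10 of the 24 higher in OXR1A-/- livers and 21 in WT livers, beside 1.67% and 2.31% of all tested genes. The list was chosen for a male bias, with earlier results of these data known, so these sex counts are no independent result. The same holds for the genotype count in males, which shares the WT male libraries with the sex comparison. Elovl3, the nearest pattern to Cyp4a12a, was at 141 ± 60.7 FPKM in males and 5.18 ± 4.13 in females in OXR1A-/- livers (log2 change 4.71, SE 0.58, limma adjusted p = 0.000822).

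Of 25 tested female-biased genes, 6 rose in OXR1A-/- males and 19 did not pass, beside 2.13% of all tested genes upwards, with a median of 1.35 beside 0.19. The count was 3 without OXR1A-/- male 2, without WT male 1, without WT male 3 or with array weights, 1 when fitted without the female libraries and 4 to 6 without any other library. Cyp2b9 was at 92.3 ± 48.4 FPKM in OXR1A-/- males and 0.727 ± 0.291 in WT males (adjusted p = 2.73e-05). The list shares Abcd2 and Acot3 with the PPAR-alpha list. It too was chosen with earlier results of these data known, so its counts are no independent result. In females 0 of the 25 passed with limma (3 at an unadjusted p under 0.05). The interaction passed for 2 of them, Cyp2b9 (5.80, limma adjusted p = 0.00122) and Slc22a27 (2.43, 0.0436), and for Selenbp2 of the male-biased list (-2.15, 0.0436). In the list of growth hormone, STAT5 and androgen signalling, 1 of 20 genes passed in males, downwards, beside 0.426% of all tested genes: Igfbp2 was at 61.4 ± 45.8 FPKM in OXR1A-/- males and 211 ± 18.8 in WT males (-2.05, SE 0.45, adjusted p = 0.0425). In females 0 of those 20 passed (2 at an unadjusted p under 0.05).

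Cyp4a10 and Cyp4a14 are known in mice to vary with feeding and time of day, so clock genes were read beside them. Of 14 tested, 0 passed by genotype in males or females with limma (1 and 4 at an unadjusted p under 0.05). In males the smallest p was that of Nr1d1, at 8.68 ± 8.35 FPKM in OXR1A-/- and 1.65 ± 0.51 in WT livers. Its groups did not overlap (log2 change 1.54, SE 0.54, limma adjusted p = 0.123), and 8 of the 14 differences were positive. In females the median of the 14 was -0.59 beside 0.003 over all tested genes. Between the sexes 4 of the 14 passed in WT livers, 1 higher and 3 lower in males, beside 2.31% and 11.1% of all tested genes, and 1 of the 14 in OXR1A-/- livers, lower in males, beside 2.01%. In WT livers Nr1d1 was at 1.65 ± 0.51 FPKM in males and 72.2 ± 35.5 in females (log2 change -4.65, SE 0.54, limma adjusted p = 0.00027), Dbp at 1.92 ± 0.428 in males and 55.6 ± 45.3 in females, and Cry1 at 13.7 ± 2.98 in males and 2.47 ± 1.7 in females. In OXR1A-/- livers Nr1d1 was at 8.68 ± 8.35 in males and 45.4 ± 13.6 in females (adjusted p = 0.0223). The hour of collection is not given, and its part in the values of Cyp4a10 and Cyp4a14, by genotype or by sex, was not tested.

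Markers of other liver cells were read in the same way, beside 2.13% of all tested genes that rose in OXR1A-/- males. Of 12 tested Kupffer cell markers 6 rose and 6 did not pass, and their sum was 400.27 to 953.97 FPKM in OXR1A-/- males, 191.15 to 358.13 in WT males, 555.62 to 811.34 in OXR1A-/- females and 475.35 to 731.81 in WT females. That count was 0 without WT male 1, without WT male 3, without the 3 trace libraries or when fitted without the female libraries. It was 2 with median-ratio scaling or without OXR1A-/- male 2, 3 without WT female 1 or any 1 of the OXR1A-/- females, and 4 to 7 without any other library. Of 9 endothelial markers 5 rose (sum 111.77 to 127.25 FPKM in OXR1A-/- males and 72.45 to 82.74 in WT males), and of 9 stellate cell markers 2 rose (160.69 to 250.11 in OXR1A-/- males and 108.29 to 126.77 in WT males). The endothelial and stellate counts were not followed under other settings. Of the 10 hepatocyte markers 0 passed with limma (6 at an unadjusted p under 0.05, median -0.37), with the sums given above lower in every OXR1A-/- male than in every WT male. In females 0 of the Kupffer, endothelial and stellate markers passed (0 at an unadjusted p under 0.05), and the interaction passed for none with limma (8, 7 and 2 at an unadjusted p under 0.05). In WT livers 8 Kupffer, 8 endothelial and 4 stellate markers were lower in males than in females, beside 11.1% of all tested genes and a median of -0.21 over them, and in OXR1A-/- livers 0 passed between the sexes (1, 2 and 1 at an unadjusted p under 0.05). The 8 Kupffer markers were 4 without WT female 1 or without WT female 3, and 3 without the 3 trace libraries. Lymphocyte markers (0 of 6 passed, 1 at an unadjusted p under 0.05), fat cell markers (0 of 2, 1 at an unadjusted p under 0.05) and exocrine pancreas markers (0 of 1, 1 at an unadjusted p under 0.05) gave no call by genotype in males. Of the fat cell genes, Adipoq was at most 0.55 FPKM and Plin1 at most 0.07. The part of these other cells in the levels of the Cyp4a genes was not tested.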

How the data were processed

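Poly(A) RNA of liver was sequenced in 12 libraries. The values are FPKM, computed by the authors and rounded to 2 decimals, per the file headers; TopHat2 and build mm10 are named in the submitters' processing notes. Read totals, the quantifier and its handling of reads that match several genes were not given in the sources used here. All per-sample columns were used (0 left out). Leaving out genes with low FPKM in either library, at most 0.338% of values were identical in a pair of libraries.

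Groups followed the labels' genotype and sex. The 11514 genes that reached 1 FPKM in 3 or more libraries were tested with limma 3.58.1 (R 4.3.3) on log2(FPKM + 1), a scale that understates the change of low genes. A single two-sided fit held a mean for each of the 4 groups, with variances moderated along mean expression. The p-values were adjusted by Benjamini-Hochberg over every tested gene, and an adjusted p under 0.05 counts as passing. A fold divides mean FPKM, and none was formed against groups holding a 0. The test was checked on simulated data for the genotype comparison in males.

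The 6 genes and all gene lists (PPAR-alpha targets, receptors and cofactors, other Cyp4 genes, omega-oxidation, male-biased and female-biased liver genes, growth hormone signalling, clock, markers of hepatocytes, Kupffer, endothelial, stellate, lymphoid, fat, kidney and pancreas cells, sex check) were chosen with earlier results of these data known. Named were the 6 genes, Ppara, the tested Cyp4 genes, the 5 genes closest to each of 4 members, and per list and comparison up to 4 called genes of smallest p, or the 2 of smallest p; the text names only some of these, and a few genes are not reported here.

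Gene starts and ends came from the RefSeq annotation. Sequences, transcripts, strands and the coordinates of the printed stretches came from GENCODE M21 on GRCm38, with transcripts matched by RefSeq accession. Identity was computed on aligned coding sequences with Biopython 1.88.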

Additional observations from a re-analysis of the deposited data

How the results depend on the processing

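Over up to 24 alternatives the number of Cyp4a genes called by genotype in males, 2 in the fit reported, was 1 with a pseudocount of 0.1, median-ratio scaling, array weights, near-identical copies summed or without the 3 libraries that held a trace of opposite-sex RNA, 0 in a fit of only the 2 groups, and 1 to 2 without 1 library. By genotype in females it stayed at 0, for the interaction at 0, for males against females at 2 in OXR1A-/- livers and at 2 to 4 in WT livers. With near-identical copies summed, the 1 value of the Cyp4a12 pair was entered under both names, here and among the values below. It therefore counts as 2 genes between the sexes under that setting. Of 699 values of single genes under an alternative, 659 kept direction and call, 17 lost a call, 3 gained one and 20 changed sign, all of the last in uncalled genes. Cyp4a12b by genotype in males also lost its call with a pseudocount of 0.1 (limma adjusted p = 0.123) or array weights (0.101). Cyp4a10 (array weights, 0.0284) and Cyp4a31 (without WT female 1, 0.0363, or the 3 trace libraries, 0.0494) gained one between the sexes in WT livers.

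Signs changed for Cyp4a31 in males (-0.013 with quantile scaling) and for Cyp4a32 between the sexes in WT livers (0.167 with median-ratio and 0.093 with quantile scaling, 0.022 with the length trend removed, 0.063 with array weights, -0.46 to 0.11 without 1 library). Without 1 library, Cyp4a32 ran from -0.23 to 0.21 in males, -0.001 to 0.88 in the interaction and -0.086 to 0.80 between the sexes in OXR1A-/- livers. Cyp4a12a ran from -0.58 to 1.09 in females and -1.44 to 0.24 in the interaction, Cyp4a12b from -0.10 to 0.32 in females, and between the sexes in OXR1A-/- livers Cyp4a10 from -0.23 to 0.022 and Cyp4a14 from -0.007 to 0.42. The causes were not tested.

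Same-numbered libraries mostly did not deviate together (correlations of -0.322 to 0.561), so the numbers were not taken as pairs in the reported fit. The highest values were those of OXR1A-/- male 1, at 0.561 with WT male 1 and 0.407 with OXR1A-/- female 1. With the replicate number as a block the same numbers of Cyp4a genes were called (limma adjusted p = 0.0356 for Cyp4a14 and Cyp4a12b in males), and 132 instead of 294 genes of all tested in males. That male count was 152 with median-ratio scaling (71 higher, 81 lower, instead of 245 and 49), 140 with quantile scaling (61 higher, 79 lower), 63 with array weights (whose fit stopped before it converged), 3 in the fit of the 2 groups and 58 to 578 without 1 library. Array weights called 229 genes in females, where the reported fit called 2. List counts under other settings were computed after seeing the data, for the PPAR-alpha, male-biased, female-biased and Kupffer lists only. Counts of the other lists, and calls of single genes outside the Cyp4a family such as Cyp4b1, Igfbp2 and Aldh3a2, were not followed under those settings. Read depth is unknown, so low values such as those of Cyp4a12b in females carry no counting interval.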
